A study of Mus musculus with 8 samples.

Results

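The 69 genes described are those for the coats, cargo receptors, GTPases and tethers that carry vesicles between the endoplasmic reticulum (ER) and the Golgi. They were taken by a rule on gene names from the 16974 genes in the deposited expression table. No measured value entered the rule, but it was set with earlier results of these data known. Of the 69, 13 encode the COPII coat, 9 the p24 cargo receptors, 9 the COPI coat and 10 Arf GTPases and their regulators. A further 14 encode TRAPP tethers, 8 COG tethers and 6 golgins. The cells were Neuro2A, a mouse neuroblastoma line, held for 16 h in serum-free medium with albumin and then given the cannabinoid receptor agonist HU210 at 2 µM or its vehicle DMSO alone for 2, 4, 6 or 8 h. The question was how gene expression follows stimulation of the cannabinoid 1 receptor, which makes these cells grow neurites. Each of the 8 combinations of treatment and time was 1 RNA-seq library made from RNA pooled from 2 to 3 experiments, so a single time point carries no replicate error, and fewer cells or less RNA per cell cannot be told apart in such bulk samples.

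ER-to-Golgi transport begins when the GTPase Sar1 loads GTP on the ER membrane and recruits first the Sec23-Sec24 inner coat, which binds cargo, and then the Sec13-Sec31 outer cage. Vesicles return from the Golgi under the COPI coat, a heptamer that Arf1 brings to the membrane after Gbf1 has loaded it with GTP, and the p24 proteins of the Tmed family cycle with cargo in both directions. TRAPP, COG and the golgins catch vesicles at the Golgi. In a cell that extends neurites this route supplies membrane and surface proteins.

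All 69 members were listed at the 4 time points, and 68 had a mean of at least 1 FPKM (fragment counts divided by transcript length and library size, hence a level per length) and entered the comparisons. The exception was Sec31b, the scarce paralog of the outer cage protein, at a mean of 0.493 FPKM. The highest mean was that of Arf1 at 282 FPKM, and the median over the members was 23.6 FPKM against 12.7 FPKM over the 11311 genes tested. Summed over the 69 members the level ran from 2465 to 2603 FPKM across the 8 libraries, with the lowest sum in the HU210 library at 2 h and the highest in the DMSO library at 4 h. Of the neuronal markers 10 of 10 listed had a mean of at least 1 FPKM, with a summed level of 378 to 434 FPKM in DMSO and 370 to 467 FPKM in HU210 libraries. The 10 listed markers of other cell types summed to 8.73 to 9.93 FPKM in DMSO and 8.61 to 10.1 FPKM in HU210 libraries, and none of them was at 0 in every library. Tubb3, Nefl and Nefm among the neuronal and Aqp4, Col1a2 and Ptprc among the other markers were not analysed here. The median difference of the neuronal marker list (HU210 minus DMSO, log2(FPKM + 1)) was -0.26 at 4 h and 0.30 at 6 h, and its part in the results was not tested.

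Of 7 short sequence elements searched in the promoters of these genes, those of the ER and Golgi stress responses are shown first because their shares differed most from promoters at large. RefSeq promoter windows (GRCm38.p6, 250 bases before to 50 bases after an annotated start) matched 58 of the 69 members by symbol and gave 68 windows. Arcn1, Arf6, Golga4, Golga7, Tmed2, Tmed7, Trappc1, Trappc14, Trappc4, Trappc8 and Trappc9 had no entry. ACGTGGC, the Golgi stress element, was present on either strand in 17 of the 68 member windows (25.0%), against 436 of 11017 windows of the genes tested (3.96%) and 846 of all 32851 windows (2.58%). The unfolded-protein-response type element TGACGTGG, which the factors ATF6 and XBP1 are known to bind, was in 8 of 68 member windows (11.8%), against 0.853% of the windows of tested genes and 0.676% of all windows. Both elements contain ACGTGG, so the same bases can count for each. Median G and C content of the windows was 60.3% in the members and 61.0% in the genes tested. These matches are descriptions of letters and not of binding.

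The stretches that hold TGACGTGG follow, 1 for each of the 7 members with it, read 5′ to 3′ on the gene's strand with 36 bases on each side and the element, or its reverse complement CCACGTCA, in capitals. In 4 of the 7 genes, Arf1, Sec16b, Sec23a and Sec24d, the element runs on into the Golgi stress element. Arf1 at chr11:59228203-59228282 (minus strand), Sec16b at chr1:157506716-157506795 (plus), Sec23a at chr12:59011968-59012047 (minus), Sec24d at chr3:123267434-123267513 (plus), Copb1 at chr7:114254665-114254744 (minus), Copb2 at chr9:98563688-98563767 (plus) and Gbf1 at chr19:46152510-46152589 (plus) are given in GRCm38.p6. The element began 7 to 84 bases before the start in 6 genes, counted for Arf1 from the downstream of its 2 starts, and 6 bases after it in Sec23a.
Arf1: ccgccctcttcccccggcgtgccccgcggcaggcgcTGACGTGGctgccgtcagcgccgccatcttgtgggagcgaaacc
Sec16b: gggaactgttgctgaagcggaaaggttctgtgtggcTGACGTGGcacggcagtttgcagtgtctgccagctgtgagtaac
Sec23a: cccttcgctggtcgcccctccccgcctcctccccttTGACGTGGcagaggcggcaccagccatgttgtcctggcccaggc
Sec24d: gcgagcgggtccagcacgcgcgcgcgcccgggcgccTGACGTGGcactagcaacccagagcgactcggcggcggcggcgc
Copb1: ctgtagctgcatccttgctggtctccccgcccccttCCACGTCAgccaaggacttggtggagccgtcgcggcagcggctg
Copb2: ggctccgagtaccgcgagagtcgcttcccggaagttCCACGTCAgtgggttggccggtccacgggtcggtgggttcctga
Gbf1: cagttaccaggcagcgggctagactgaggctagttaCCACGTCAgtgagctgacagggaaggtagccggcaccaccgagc

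The 7 carriers include the GTPase that recruits COPI, its exchange factor, 2 COPI subunits and 3 COPII proteins. In the drug comparison they stayed close to the other members: their median log2 difference (HU210 minus DMSO, on the log2(FPKM + 1) scale used throughout) took the values -0.07, -0.08, 0.01 and -0.04 in order of time, against -0.03, -0.06, 0.02 and -0.01 for the 50 tested members with a window and no such element. Of the 7, Copb1 alone passed 1.3-fold at any time, being lower at 4 h. Of the 50, 7 were higher and 6 lower at 4 h, as were 8.96% and 19.9% of all genes tested. A count of 1 in 7 is therefore not a result about the element. Tmed2, Tmed7, Golga7, Trappc1 and Arcn1, which passed 1.3-fold at 4 h, had no window and are in neither group. For the 16 members with the Golgi stress element the medians were -0.03, -0.09, -0.01 and -0.01. At 4 h 3 of the 16 were higher and 2 lower by 1.3-fold, and 4 and 5 of the 41 with a window and without it. The ETS element CCGGAAGT was in 13 of 68 windows (19.1% against 8.71% of windows of tested genes), the E-box CACGTG in 8 (11.8% against 10.1%), the YY1 element AAGATGGC in 4 (5.88% against 4.7%) and the cyclic AMP element TGACGTCA in 1, that of Cope (1.47% against 3.22%). The longer ER stress response element was in 0 of 68 member windows and 0.163% of the windows of tested genes.

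**Figure D1:**
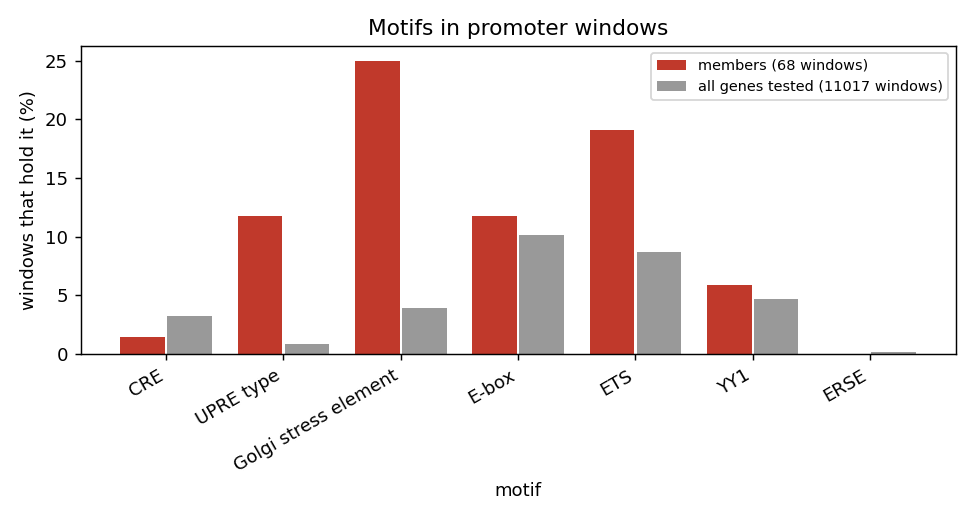
Share of promoter windows (percent, vertical axis) that hold each element, for the 68 member windows (red) and the 11017 windows of all genes tested (grey). The Golgi stress element stands at 25.0% against 3.96% and the unfolded-protein-response type at 11.8% against 0.853%, while the cyclic AMP element is at 1.47% against 3.22%.

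At 2 h few genes of any kind differed by 1.3-fold between HU210 and DMSO. Of 68 members 0 were higher and 0 lower by 1.3-fold, where 1.49% of all 11311 genes tested were higher and 3.91% lower, and the member values ran from -0.35 to 0.36 on the log2 scale. At 4 h 7 members were higher (10.3%, against 8.96% of all genes) and 12 lower (17.6%, against 19.9%). The 6 h pair had 3 members above that fold (4.41%, against 6.38%) and 1 below it (1.47%, against 1.72%). The 8 h pair had 4 above (5.88%, against 4.38%) and 1 below (1.47%, against 1.44%). These shares lay near those of all genes at 4, 6 and 8 h, so the counts are not a result about transport genes in particular. The shares of all genes at 2 h were small too, so 0 of 68 is no such result either.

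The median difference over the members was -0.04, -0.09, 0.03 and 0.01 at 2, 4, 6 and 8 h, against -0.05, -0.08, 0.06 and 0.04 over all genes tested. Members above 0 numbered 19, 24, 42 and 35 of 68 in order of time (27.9%, 35.3%, 61.8% and 51.5%), where 4070 of the 11311 genes tested were above 0 at 2 h and 40.9%, 65.6% and 62.5% of them at the later times. The spread between members was widest at 4 h, with a standard deviation of 0.352, while the 2, 6 and 8 h values were 0.124, 0.172 and 0.170. Over all genes tested the corresponding values were 0.400 and then 0.214, 0.230 and 0.206. At 1.5-fold only 4 h had members past it, 2 higher and 7 lower. The share of all genes past 1.5-fold was not computed, so this count is not a result about transport genes in particular.

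**Figure D2:**
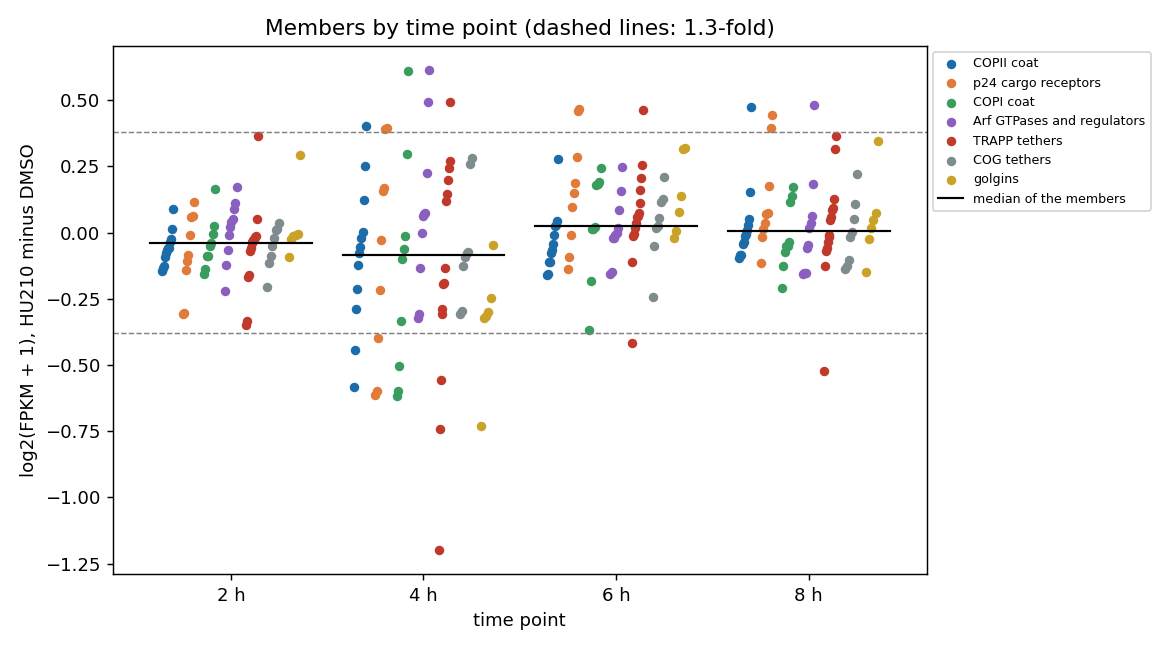
Difference between the HU210 and the DMSO library, as log2(FPKM + 1), for the 68 tested members at each time point, coloured by role. Black lines are member medians and dashed lines mark 1.3-fold: at 2 h no point passes them, and at 4 h the points spread from -1.20 to 0.61.

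No difference over the time course passed a test across libraries. HU210 against DMSO with time point as a block (limma with Benjamini-Hochberg adjustment over all genes) called 0 members and 0.0% of all genes, and at an unadjusted p under 0.05 it had 0 members and 146 genes. The 6 h and 8 h libraries against those at 2 h and 4 h called 0 members and 0.0% of genes, with 3 members and 810 genes at an unadjusted p under 0.05. The drug difference at 6 h and 8 h against that at 2 h and 4 h also called 0 members and 0.0% of genes, with 12 members (17.6%) and 1915 genes (16.9%) at an unadjusted p under 0.05. Limma was the only tool run for these tests. This last test rests on 2 residual degrees of freedom and had too little power to make calls, so its count of 0 does not show that the differences were alike. Its lowest adjusted p over all genes was 0.17.

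Those 12 members were Tmed7, Tmed2, Trappc6b, Golga7, Copb1, Trappc13, Tmed4, Arf4 and Arf6, whose drug difference was larger late than early, and Cope, Arfgap1 and Arf5, whose difference was smaller. Tmed7, a p24 receptor, had the lowest unadjusted p, 0.0014, with a late-minus-early difference of 0.90 ± 0.16 (SE) on the log2 scale and an adjusted p of 0.23 (limma). With the 2 h pair left out, so that 4 h was set against 6 h and 8 h, the same test called 8 members (11.8%: Arf5, Copb1, Cope, Copz2, Golga7, Tmed2, Tmed7 and Trappc6b) and 1158 genes (10.2%). Its early arm is then the 4 h pair alone, which is assumed to vary as the 6 h and 8 h pairs do, on 1 residual degree of freedom shared across genes by limma. The p-values measure the spread between pooled libraries of different time points, not between replicates of a condition.

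At 4 h some genes for proteins of the same complex, or for paralogs, had differences of opposite sign. Not all did: Copg1 and Copg2 (-0.10 and -0.34), Copz1 and Copz2 (-0.06 and -0.62) and Sar1a and Sar1b (-0.12 and -0.44) were all below 0. The cases that follow were picked for their opposite signs at 4 h, so the split itself is no result. The cases shown are the TRAPP subunits Trappc6a and Trappc6b, which occupy the same place in TRAPP, the class II Arf GTPases Arf5 and Arf4, the COPI subunits Cope (epsilon-COP) and Copb1 (beta-COP), and the p24 receptors Tmed9 and Tmed2. Once corrected for a trend with GC content and exon length, the 4 h differences were 0.24 for Trappc6a and -0.64 for Trappc6b, 0.36 for Arf5 and -0.11 for Arf4, 0.45 for Cope and -0.39 for Copb1, and 0.23 for Tmed9 and -0.54 for Tmed2, so that Trappc6a, Arf5 and Tmed9 no longer passed 1.3-fold, and Arf4 passed it in neither case. In the values that follow, levels are FPKM in the order 2, 4, 6 and 8 h.

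Trappc6a (chr7:20094019-20101494, plus strand, mm9) measured 24.8, 27.8, 24.5 and 24.2 FPKM with HU210 and 25.1, 19.4, 26.5 and 25.4 FPKM with DMSO. Its HU210 library at 4 h was the highest of the 8 and its DMSO library at 4 h the lowest, and the other 6 lay between 24.2 and 26.5 FPKM. The log2 difference at 4 h was 0.49. Trappc6b (chr12:60144080-60162448, minus strand, mm9) measured 22.3, 18.5, 25.8 and 23.02 FPKM with HU210 and 23.5, 31.6, 18.4 and 17.6 FPKM with DMSO. Its DMSO library at 4 h was the highest of the 8, but its HU210 library at 4 h was not the lowest. Its differences were -0.07, -0.74, 0.46 and 0.37 at 2, 4, 6 and 8 h, past 1.3-fold downward at 4 h and upward at 6 h. A stretch of 477 bases of Trappc6b matches the gene Gm13880 at 95.8% identity, so its reads are uncertain in part.

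Arf5 (chr6:28373560-28376602, plus strand, mm9) measured 99.8, 118, 93.4 and 93.3 FPKM with HU210 and 92.3, 76.97, 104 and 104 FPKM with DMSO. It too had its highest level in the HU210 library and its lowest in the DMSO library at 4 h, a difference of 0.61, and the difference at 6 and 8 h was -0.16 and -0.15. Its closest paralog Arf4 (chr14:27457560-27484570, plus strand, mm9) measured 70.1, 73.4, 82.4 and 71.4 FPKM with HU210 and 81.9, 90.98, 73.7 and 69.5 FPKM with DMSO. There the DMSO library at 4 h was the highest, with differences of -0.22, -0.31, 0.16 and 0.04 at 2, 4, 6 and 8 h, none past 1.3-fold, and 22.6% of its exon bases overlap other annotated genes.

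The coding starts of these paralogs are shown because each pair differs in base composition over the whole coding sequence. The bases shown differ less. Tmed2 and Tmed9 do not differ in this way, with G or C at 67.3% and 67.4% of last codon positions. The first 90 coding bases (GENCODE vM1 on mm9) are in lower case with G or C at the last position of each codon in capitals.
Trappc6a: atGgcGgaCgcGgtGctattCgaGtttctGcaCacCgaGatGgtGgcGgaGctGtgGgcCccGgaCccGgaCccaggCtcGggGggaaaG
Trappc6b: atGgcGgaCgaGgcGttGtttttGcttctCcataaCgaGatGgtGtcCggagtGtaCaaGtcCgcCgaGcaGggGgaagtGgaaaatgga
Arf5: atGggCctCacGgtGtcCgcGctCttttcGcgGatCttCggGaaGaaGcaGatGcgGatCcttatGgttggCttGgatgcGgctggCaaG
Arf4: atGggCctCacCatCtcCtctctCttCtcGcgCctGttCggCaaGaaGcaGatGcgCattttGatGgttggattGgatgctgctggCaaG

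Over these 30 codons G or C ends 26 in Trappc6a and 22 in Trappc6b, 25 in Arf5 and 23 in Arf4. Over the whole coding sequence the share was 79.3% in Trappc6a against 50.9% in Trappc6b and 76.2% in Arf5 against 46.7% in Arf4. The coding sequences are identical at 60.6% of 477 aligned bases for Trappc6a and Trappc6b, and at 78.8% of 542 for Arf5 and Arf4. Over annotated exons G and C made up 61.0% of Trappc6a, 44.3% of Trappc6b, 59.9% of Arf5 and 41.7% of Arf4.

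**Figure D3:**
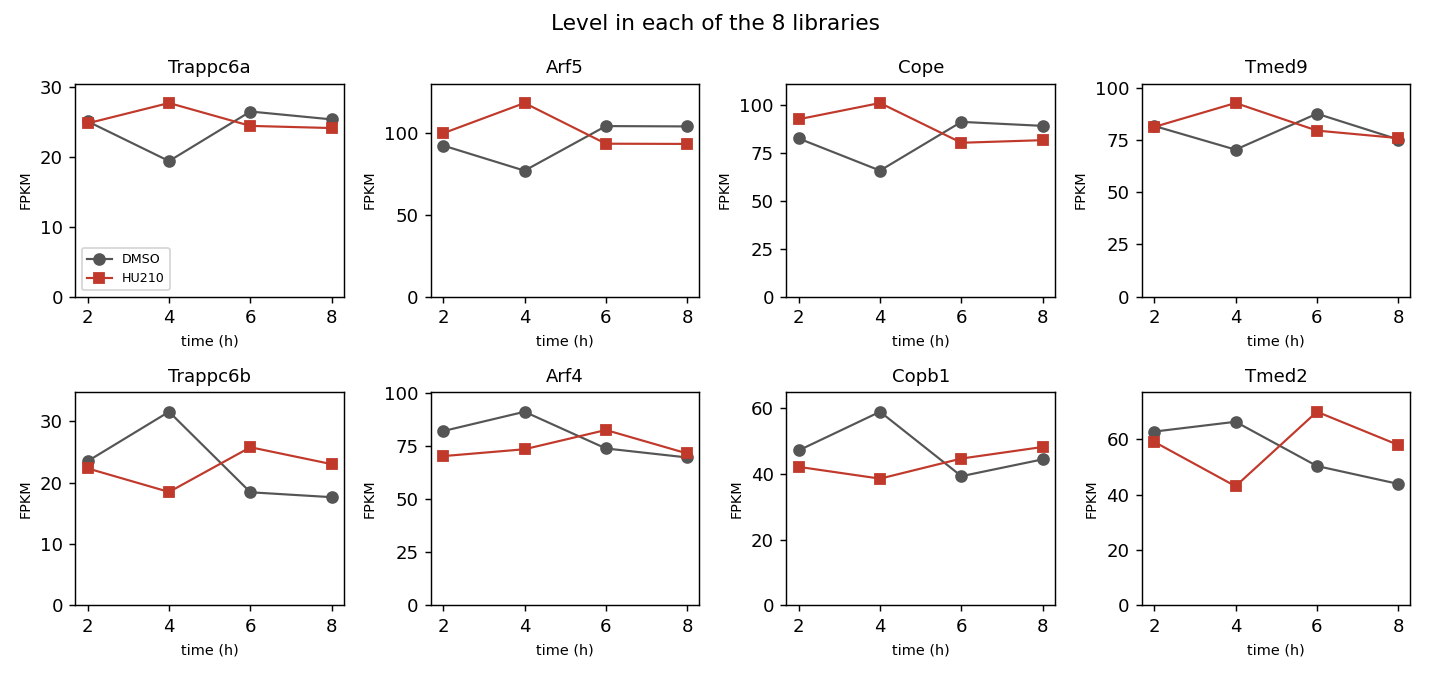
Level (FPKM, vertical axis from 0) against time (h) for 8 members, with HU210 libraries as red squares and DMSO libraries as grey circles, 1 library a point. In the upper row the HU210 library is above the DMSO library at 4 h, in the lower row below it, and at 6 h the order of each is the other way round.

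Of 9 COPI genes, which coat retrograde vesicles, 1 was higher and 3 were lower by 1.3-fold at 4 h, and 0 at the other times. Over all genes tested 8.96% were higher and 19.9% lower at 4 h, so counts this small are not a result about COPI. Cope (chr8:72826417-72836892, plus strand, mm9) measured 92.5, 101, 80.3 and 81.6 FPKM with HU210 and 82.5, 65.8, 91.2 and 89.1 FPKM with DMSO, with a difference of 0.61 at 4 h. Copb1 (chr7:121359073-121398225, minus strand, mm9) measured 42.2, 38.6, 44.7 and 48.3 FPKM with HU210 and 47.2, 58.98, 39.4 and 44.5 FPKM with DMSO, with a difference of -0.60. At 4 h the libraries of Cope and Copb1 stood at opposite ends: the DMSO library was the lowest of 8 for Cope and the highest of 8 for Copb1. Arcn1 (delta-COP) measured 36.1, 32.3, 40.01 and 36.8 FPKM with HU210 and 37.5, 46.2, 35.1 and 33.4 FPKM with DMSO and was lower at 4 h (log2 difference -0.50). Its transcript has near-identical copies in Gm8752 and Gm8750.

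Of the zeta-COP paralogs, Copz2 passed 1.3-fold at 4 h and Copz1 at no time. Copz1 measured 109.7, 99.01, 99.8 and 89.7 FPKM with HU210 and 108, 103, 98.4 and 92.8 FPKM with DMSO, with differences of 0.03, -0.06, 0.02 and -0.05 at 2, 4, 6 and 8 h. Copz2, the scarcer paralog, measured 9.05, 6.62, 8.22 and 9.21 FPKM with HU210 and 9.09, 10.7, 7.07 and 8.06 FPKM with DMSO and differed by -0.01, -0.62, 0.19 and 0.17 at 2, 4, 6 and 8 h. Copz2 was the member lower at 4 h with a GC content of 51.2%, at the upper end of that set. The gamma-COP paralogs Copg1 and Copg2 stayed inside 1.3-fold at every time. Copg1 measured 65.2, 72.7, 70.6 and 75.8 FPKM with HU210 and 69.5, 77.96, 69.9 and 79.8 FPKM with DMSO, and Copg2 measured 24.1, 20.7, 25.4 and 22.3 FPKM with HU210 and 25.6, 26.4, 21.3 and 23.2 FPKM with DMSO, with 904 bases of Copg2 identical to the overlapping gene Mest. Copa (alpha-COP) measured 98.7, 119, 97.1 and 100.3 FPKM with HU210 and 102, 96.96, 126 and 116 FPKM with DMSO. It was the COPI gene with the largest difference at 6 h, -0.37, just inside 1.3-fold, with DMSO above HU210 at 2, 6 and 8 h and below it at 4 h. Copb2 lay between 55.1 and 63.3 FPKM in the 8 libraries.

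The members past 1.3-fold upward at both 6 and 8 h were Tmed2 and Tmed7, which are p24 cargo receptors. Trappc6b passed it at 6 h and was just inside it at 8 h (0.37). The share of all genes past it at both times was not computed, so this is not a result about p24 receptors in particular. Tmed2 (chr5:124990704-125000515, plus strand, mm9), which pairs with other p24 proteins and is named in the study, measured 59.1, 43.1, 69.98 and 57.98 FPKM with HU210 and 62.8, 66.4, 50.4 and 43.9 FPKM with DMSO. Its differences were -0.09, -0.61, 0.47 and 0.39 at 2, 4, 6 and 8 h, past 1.3-fold downward at 4 h and upward at 6 and 8 h. Tmed7 measured 22.2, 21.4, 28.1 and 27.8 FPKM with HU210 and 27.6, 32.9, 20.1 and 20.2 FPKM with DMSO, with differences of -0.30, -0.60, 0.46 and 0.44 at 2, 4, 6 and 8 h. For both genes the HU210 library exceeded its DMSO library at 6 and 8 h and fell short of it at 2 and 4 h, and the HU210 and DMSO ranges overlapped over the 8 libraries. Tmed2 shares 606 identical bases with Gm10698.

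Other p24 genes leaned the other way at 4 h. Tmed9 (chr13:55694313-55699027, plus strand, mm9) measured 81.2, 92.6, 79.4 and 75.8 FPKM with HU210 and 81.6, 70.3, 87.5 and 75.1 FPKM with DMSO and differed by 0.39 at 4 h. Tmed1 measured 29.5, 28.5, 24.02 and 19.8 FPKM with HU210 and 27.1, 21.5, 25.7 and 21.6 FPKM with DMSO and differed by 0.39, with 22.6% of its exon bases inside Dnm2. Tmed9 had its lowest level of the 8 in the DMSO library at 4 h, and Tmed1 in the HU210 library at 8 h. Tmed4 measured 47.5, 56.3, 56.9 and 57.9 FPKM with HU210 and 59.1, 65.7, 49.9 and 56.5 FPKM with DMSO, among the 5 lowest differences at 2 h (-0.31). Tmed8 measured 9.34, 9.29, 10.9 and 9.93 FPKM with HU210 and 10.1, 12.6, 9.74 and 10.1 FPKM with DMSO and differed by -0.40 at 4 h. Tmed3, Tmed5 and Tmed10 stayed inside 1.3-fold at every time. At 8 h 7 of 9 p24 genes were above 0, and their median was 0.07. Over all genes tested 62.5% were above 0 at 8 h, with a median of 0.04.

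COPII coat genes were mostly level. Of 12 tested, 0 passed 1.3-fold at 2 and 6 h, while 4 h had 1 above and 2 below it and 8 h had 1 above. Over all genes tested 8.96% were above and 19.9% below it at 4 h, and 4.38% above at 8 h. Sec24a (chr11:51505765-51577136, minus strand, mm9), a cargo-binding subunit, measured 9.19, 7.71, 10.3 and 11.7 FPKM with HU210 and 9.87, 12.03, 11.6 and 8.13 FPKM with DMSO and gave differences of -0.09, -0.58, -0.16 and 0.47 at 2, 4, 6 and 8 h. It was lowest in the HU210 library at 4 h and had a DMSO level at 8 h below the other DMSO libraries. Its paralogs stayed inside 1.3-fold. Sec24b measured 44.5, 44.1, 46.96 and 51.8 FPKM with HU210 and 46.98, 45.9, 50.8 and 53.3 FPKM with DMSO. Sec24c measured 23.3, 28.9, 28.6 and 32.3 FPKM with HU210 and 25.9, 33.7, 28.8 and 34.3 FPKM with DMSO, and Sec24d measured 13.9, 12.98, 13.9 and 15.6 FPKM with HU210 and 14.6, 13.7, 13.6 and 13.9 FPKM with DMSO, with 327 bases identical to the overlapping Mettl14. The differences of Sec24b, Sec24c and Sec24d ran from -0.21 to 0.15 over the 4 times.

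Sar1a and Sar1b encode the GTPase that starts the coat. Sar1a measured 70.8, 75.3, 73.9 and 77.8 FPKM with HU210 and 77.8, 82.1, 72.3 and 83.2 FPKM with DMSO, with the largest difference -0.13, at 2 h. Sar1b measured 47.00, 38.7, 42.1 and 40.4 FPKM with HU210 and 44.2, 53.04, 43.5 and 40.8 FPKM with DMSO and was lower at 4 h (log2 difference -0.44), with its highest level in the DMSO library of that time. Their coding sequences are identical at 78.6% of 597 aligned bases, with G or C at 49.2% and 46.2% of last codon positions, so this pair, unlike Trappc6a and Trappc6b, is close in composition.

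The Sec23 pair stayed inside 1.3-fold. Sec23a measured 17.7, 15.7, 19.1 and 16.3 FPKM with HU210 and 19.4, 19.4, 15.5 and 17.3 FPKM with DMSO, and Sec23b measured 31.6, 34.02, 29.1 and 30.9 FPKM with HU210 and 32.9, 34.01, 31.5 and 30.3 FPKM with DMSO. Sec13, an outer cage protein that also serves the nuclear pore, measured 109, 125, 98.9 and 95.1 FPKM with HU210 and 112, 94.4, 111 and 97.5 FPKM with DMSO and was higher at 4 h (log2 difference 0.40), with the lowest level of the 8 in the DMSO library of that time. Its partner Sec31a measured 40.8, 40.6, 41.8 and 41.4 FPKM with HU210 and 41.5, 41.2, 40.6 and 41.1 FPKM with DMSO, a range from 40.6 to 41.8 FPKM. Sec31b measured 0.507, 0.198, 0.499 and 0.955 FPKM with HU210 and 0.574, 0.516, 0.112 and 0.586 FPKM with DMSO, too low to be compared. The Sec16 scaffolds mark ER exit sites. Sec16a measured 23.6, 30.6, 27.2 and 28.5 FPKM with HU210 and 23.4, 25.5, 28.8 and 28.6 FPKM with DMSO, and Sec16b measured 3.71, 4.10, 3.88 and 4.08 FPKM with HU210 and 3.90, 3.69, 4.11 and 3.90 FPKM with DMSO, neither past 1.3-fold.

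Among the Arf GTPases and regulators, 2 of 10 were higher and 0 lower by 1.3-fold at 4 h and 1 was higher at 8 h. The shares over all genes tested were 8.96% higher and 19.9% lower at 4 h, and 4.38% higher at 8 h. The gene higher at 8 h was Arf6 (chr12:70473137-70476966, plus strand, mm9), which acts at the plasma membrane and endosomes, at 30.8, 27.3, 37.97 and 40.5 FPKM with HU210 and 28.9, 34.4, 31.8 and 28.8 FPKM with DMSO. Its differences were 0.09, -0.32, 0.25 and 0.48 at 2, 4, 6 and 8 h, and the HU210 library at 8 h was the highest of the 8. The 4 h sign of Arf6 was opposite to that of Arf5. Arfgap1, which turns Arf1 off on COPI vesicles, measured 17.9, 19.2, 14.3 and 14.5 FPKM with HU210 and 15.8, 13.4, 16.00 and 15.1 FPKM with DMSO and differed by 0.49 at 4 h.

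The remaining Arf genes stayed inside 1.3-fold. Arf1 measured 285, 312, 269 and 258 FPKM with HU210 and 275, 297, 273 and 286 FPKM with DMSO, Arf2 measured 24.8, 24.9, 22.1 and 21.6 FPKM with HU210 and 27.1, 23.6, 22.2 and 22.3 FPKM with DMSO, and Arf3 measured 78.7, 84.8, 93.96 and 91.5 FPKM with HU210 and 79.2, 84.8, 88.6 and 80.4 FPKM with DMSO. Their differences ran from -0.15 to 0.18. Arf2 was 1 of the 3 members with an unadjusted p under 0.05 between late and early libraries, lower late by a log2 difference of -0.18 ± 0.07 (SE, limma, adjusted p = 0.67). Gbf1, the exchange factor for Arf1 at the early Golgi, measured 12.4, 12.7, 13.8 and 13.1 FPKM with HU210 and 12.03, 14.1, 13.7 and 14.7 FPKM with DMSO and had its largest difference, -0.16, at 8 h.

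TRAPP subunits, which tether incoming vesicles and activate Rab1, included the member with the lowest difference at each of the 4 times. Of 14, the 4 h pair put 1 above and 3 below 1.3-fold, the 6 h pair 1 on each side, and the 8 h pair 1 below. Over all genes tested 8.96% were above and 19.9% below at 4 h. At 6 h the shares were 6.38% above and 1.72% below, and at 8 h 1.44% were below. Trappc2 (chrX:162878506-162891072, plus strand, mm9) measured 13.8, 6.66, 12.1 and 14.4 FPKM with HU210 and 10.5, 16.6, 16.5 and 11.4 FPKM with DMSO, with differences of 0.36, -1.20, -0.42 and 0.32 at 2, 4, 6 and 8 h. The difference was above 0 at 2 and 8 h and below 0 at 4 and 6 h, and its HU210 and DMSO ranges overlapped. Part of Trappc2, 425 bases, matches Gm13080 at 96.5%. Trappc1 measured 39.8, 39.01, 45.9 and 42.3 FPKM with HU210 and 41.5, 57.8, 39.6 and 39.6 FPKM with DMSO and was lower at 4 h (log2 difference -0.56), with its highest level in the DMSO library of that time.

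Trappc14 measured 4.69, 3.84, 4.49 and 2.81 FPKM with HU210 and 4.83, 4.52, 4.26 and 4.48 FPKM with DMSO. The single low value was that of the HU210 library at 8 h, and the difference of -0.52 has to be read with an overlap in the annotation. The entries BC037034 and another gene cover 92.9% of the exon bases of Trappc14. Whether BC037034 is a separate gene or another entry of the same locus was not checked. Trappc3 measured 15.7, 17.8, 19.1 and 19.2 FPKM with HU210 and 20.3, 20.5, 16.97 and 19.3 FPKM with DMSO, and Trappc13 measured 47.02, 48.7, 50.4 and 59.4 FPKM with HU210 and 59.5, 60.5, 42.1 and 60.2 FPKM with DMSO. Both had the lowest differences of all members at 2 h, -0.35 and -0.33, inside 1.3-fold. A stretch of 310 bases of Trappc13 is identical to the overlapping entry 2410002O22Rik, and whether that is a separate gene was likewise not checked. Trappc12, also a kinetochore protein, was higher in late than early libraries by 0.19 ± 0.07 (SE, limma, unadjusted p = 0.023, adjusted p = 0.64).

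COG and golgin genes act later, at the cisternae of the Golgi. All 8 COG genes stayed inside 1.3-fold at every time. Cog1 measured 22.1, 19.5, 17.2 and 19.4 FPKM with HU210 and 21.8, 16.1, 20.6 and 18.7 FPKM with DMSO, and its difference of -0.24 at 6 h was the lowest of the 8 at that time, with 744 of its bases shared with D11Wsu99e. Among the 6 genes grouped by name as golgins 1, Golga7, was lower by 1.3-fold at 4 h, beside 19.9% of all genes, and 0 passed it at 6 h. Their medians were -0.31 at 4 h, with 0 of 6 above 0, and 0.11 at 6 h, with 5 of 6 above 0, beside the 40.9% and 65.6% of all genes above 0. Golga7 (chr8:24351825-24367546, minus strand, mm9), a partner of the Ras palmitoyltransferase, measured 35.9, 28.7, 37.6 and 34.2 FPKM with HU210 and 38.3, 48.3, 29.9 and 26.8 FPKM with DMSO and had differences of -0.09, -0.73, 0.32 and 0.34 at 2, 4, 6 and 8 h. It matches Gm8508 over 414 bases and Gm6829 over 341 bases at over 95% identity. Its coding sequence has 137 codons, far fewer than the 729 to 2238 of the other genes in this group, none of which passed 1.3-fold.

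Golga1 measured 7.68, 5.34, 7.04 and 5.38 FPKM with HU210 and 6.08, 6.53, 6.30 and 5.06 FPKM with DMSO, and Golga2 (GM130, a cis-Golgi tether) measured 16.8, 15.7, 18.5 and 16.4 FPKM with HU210 and 16.9, 19.8, 14.7 and 15.8 FPKM with DMSO. Golga1 was among the highest differences at 2 h (0.29) and Golga2 at 6 h (0.32). For Golga2 the sign at 4 h was the opposite, -0.32.

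The 4 h values came from both libraries of that time. In each of the 12 members lower at 4 h the DMSO library at 4 h was above all 3 other DMSO libraries, and the HU210 library at 4 h was below all 3 other HU210 libraries. In the 7 members higher at 4 h the DMSO library was below all 3 others in 7, and the HU210 library above all 3 others in 6. The median of the 12 in the 4 h DMSO library was 0.38 above the mean of the other DMSO libraries on the log2 scale, and the median of the 7 was 0.21 below it (-0.21). The members were chosen on this pair, so these values describe the split and test nothing. The same held for all genes: of 2251 lower by 1.3-fold at 4 h, 1934 had their DMSO library above the other DMSO libraries and 1726 their HU210 library below the other HU210 libraries.

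Set against the average of all 4 DMSO libraries instead, the HU210 library at 4 h had 0 members above 1.3-fold and 1, Trappc2, below it. On that footing the 6 h library had 0 on either side, and the 8 h library had Arf6 above and Trappc14 below. The shares of all genes on this reference were not computed, so these counts are not a result about transport genes in particular. The DMSO library at 4 h had Pearson correlations with the other libraries from 0.9734 to 0.9868 (median 0.9829, on log2 levels over 11311 genes), the lowest median of the 8 libraries. The medians of the others ran from 0.9864 to 0.9888.

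**Figure D4:**
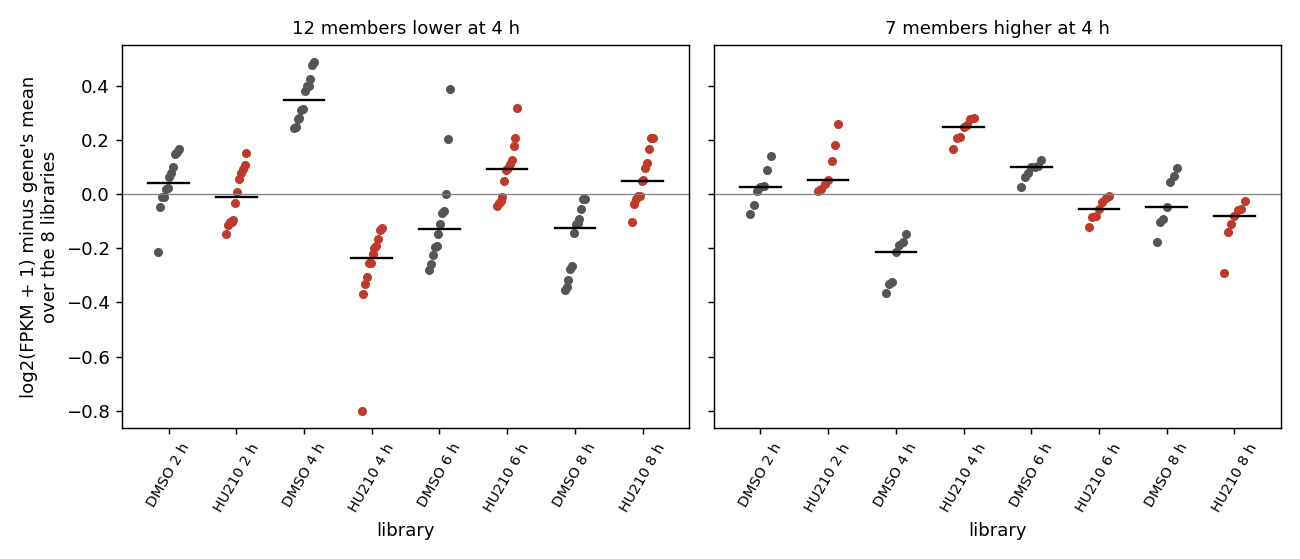
Log2(FPKM + 1) minus the gene's mean over the 8 libraries (vertical axis) for the 12 members lower (left) and the 7 higher (right) by 1.3-fold at 4 h, in DMSO (grey) and HU210 (red) libraries, with black lines as medians. The sets were chosen on the 4 h pair: medians there are 0.35 in DMSO and -0.24 in HU210 for the lower set, and -0.22 and 0.25 for the higher set.

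Many members had the opposite sign after 4 h. Of the 12 lower at 4 h, 9 were above 0 at 6 h and 10 at 8 h, with medians of 0.19 and 0.24. Of the 7 higher at 4 h, 0 were above 0 at 6 h and 1 at 8 h, with medians of -0.15 and -0.07. Among all genes higher at 4 h 24.9% were above 0 at 6 h and 45.9% at 8 h. Among all genes lower at 4 h 89.2% were above 0 at 6 h and 76.5% at 8 h, beside 75.0% and 83.3% of the 12 members. Across the 68 members the rank correlation (Spearman) of the 4 h with the 6 h difference was -0.62 (-0.56 over all 11311 genes) and of the 6 h with the 8 h difference 0.41 (0.23). These are correlations across genes within the same libraries, each time point having its own DMSO library, and genes are not independent replicates.

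Base composition moved with the 4 h difference. The 7 members higher at 4 h had a median exon GC content of 54.6% (51.1% to 61.0%) and the 12 lower ones of 44.0% (41.4% to 51.2%). Over all genes tested the medians were close to these, 54.9% for the 1014 higher at 4 h and 45.3% for the 2251 lower. Of the 34 members at or above the member median of 50.3%, 7 were higher and 1 lower by 1.3-fold at 4 h, and of the 34 below it 0 were higher and 11 lower. The same split was not computed over all genes, so these counts are not a result about transport genes in particular. Across the 68 members the rank correlation of GC content with the difference took the values 0.39, 0.62, -0.32 and -0.24 in order of time. Over all genes tested it was 0.15, 0.50, -0.27 and -0.14.

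The same lean was seen in single libraries. Deviations of the members from their own mean correlated with GC content by 0.62 in the HU210 and by -0.60 in the DMSO library at 4 h, and between -0.22 and 0.32 in the other 6 libraries. Over all genes tested the values in the HU210 and DMSO libraries at 4 h were 0.45 and -0.46. After a trend on GC content and length, fitted over all genes, had been removed, 3 members were higher and 9 lower at 4 h, and 8 of the 19 stayed past 1.3-fold in the same direction: Trappc2, Trappc6b, Golga7, Copz2, Tmed2, Copb1, Trappc1 and Cope. At 6 h 4 of 4 members stayed past it and at 8 h 4 of 5. The cause of the lean was not tested.

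**Figure D5:**
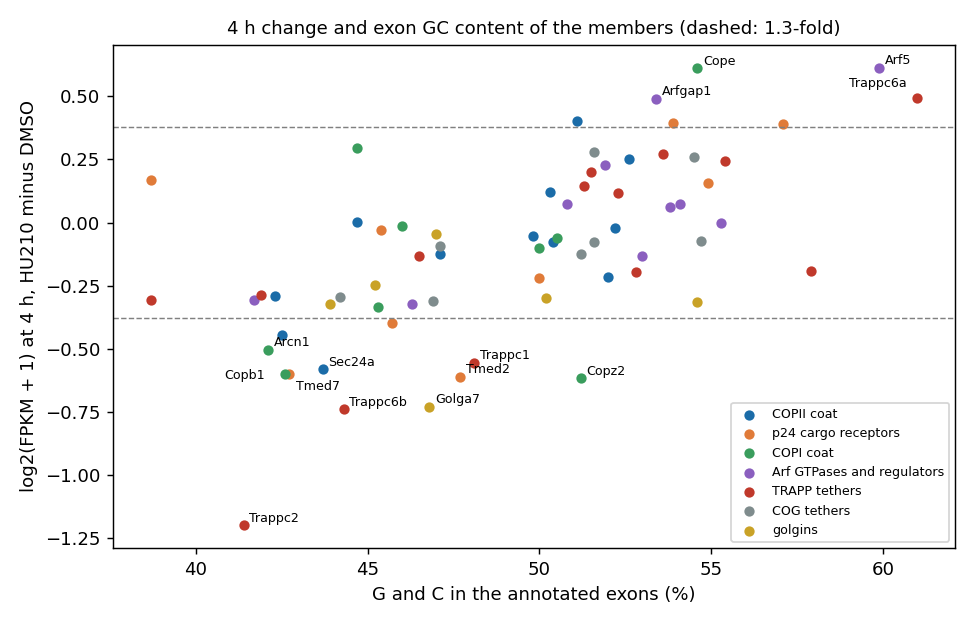
Difference at 4 h (log2(FPKM + 1), HU210 minus DMSO, vertical axis) against the percent of G and C in the annotated exons (horizontal axis) for the 68 tested members, coloured by role, with dashed lines at 1.3-fold. Points past the upper line lie between 51.1% and 61.0% GC and those past the lower line between 41.4% and 51.2%, with a rank correlation of 0.62 across genes.

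Other genes of the secretory pathway, from a list of 55 of which 53 were tested, gave 1 gene above and 1 below 1.3-fold at 2 h, 2 above and 14 below at 4 h, 8 above and 0 below at 6 h, and 6 above and 1 below at 8 h. The 14 are 26.4% of the list, against 19.9% of all genes, the 8 are 15.1%, against 6.38%, and the 6 are 11.3%, against 4.38%. Their medians were -0.05, -0.13, 0.07 and 0.07. Like the ER stress list that follows, this list was drawn up with earlier results of these data known. It holds genes that the study names at 6 h and 8 h, such as Bcap29 and Rab6a, which are among the 8 and the 6. Its shares are therefore not an independent comparison with all genes. Golph3, a Golgi phosphoinositide reader, and Sec62, a translocon partner, ran like Trappc6b: Golph3 differed by -0.13, -0.96, 0.70 and 0.45 at 2, 4, 6 and 8 h and Sec62 by -0.23, -1.18, 0.63 and 0.45 at 2, 4, 6 and 8 h. Sec63, the ER J-protein of the translocon, measured 80.03, 67.1, 89.1 and 79.2 FPKM with HU210 and 44.9, 106, 36.7 and 39.1 FPKM with DMSO, the member of that list with the largest difference at 2, 6 and 8 h. Of 24 ER stress genes tested, 0 passed at 2 h, 5 were higher and 3 lower at 4 h, 1 was higher at 6 h and 2 at 8 h. At 4 h that is 20.8% higher and 12.5% lower, against 8.96% and 19.9% of all genes, and at 8 h 8.33% higher, against 4.38%, with a list median of 0.20 against 0.04 over all genes. The 2 were Hspa5 (BiP, the ER chaperone) at 0.44 and Dnajb9 (its J-protein) at 0.53. Hspa5 measured 232, 246, 258 and 274 FPKM with HU210 and 262, 220.4, 252 and 201 FPKM with DMSO, with its lowest level in the DMSO library at 8 h.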

How the data were processed

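The members and the lists of other genes were chosen with earlier results of these data known. The authors aligned reads to mm9 with TopHat2 2.0.8, Bowtie2 2.1.0 and SAMtools 0.1.7 and, with Cufflinks (upper-quartile normalization, multi-read and fragment-bias correction), deposited FPKM values plus 1 for the HU210 and DMSO library of each time point, together with their own fold changes, p-values, q-values and calls, which were not used. A second deposited file held only such calls and was not used. The table holds no read counts, so the reads behind each value are not known from it and no counting interval can be given. The study's methods describe 1 sequencing lane for each sample, which gives similar depths for the 8 libraries. The offset of 1 was subtracted, and levels were compared as log2(FPKM + 1), a scale that understates the change of low genes. Genes with a mean of at least 1 FPKM over the 8 libraries were tested.

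With 1 library per condition a member was counted as higher or lower past 1.3-fold, beside the share of all genes tested. Tests across libraries used limma 3.58.1 (R 4.3.3) on all 11311 genes, two-sided, with Benjamini-Hochberg adjustment at 0.05, and the scripts were tested on simulated data. The design took HU210 against DMSO with time point as a block, late against early libraries with treatment as a term, and the interaction of both. GC content and length came from GENCODE vM1 on mm9 over the union of annotated exons, and near-identical copies were sought with BLAST 2.17.0 at 95% identity over at least 200 bases, which found 12 members with such a stretch. Whether the authors counted by strand is not given in the sources used here, so reads of overlapping genes cannot be told apart. Motifs were searched on both strands. Values in every library are given for members called in a limma test, for the 5 highest and 5 lowest differences at each time point, for the paralog families and for Tmed2, Arf6 and Sec24a, and members past 1.3-fold were added after their values were seen. Alternatives were a pseudocount of 0.1, no filter on low values, centring, the mean of the 4 DMSO libraries as reference, removal of a GC and length trend (loess, span 0.3), libraries centred, a variance trend, no block, a single treatment and leaving out each time point.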

Additional observations from a re-analysis of the deposited data

How the results depend on the processing

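Of 40 recomputed counts of members past 1.3-fold, 29 were within 1.5 times the value reported. Of 30 recomputed limma counts 29 were 0, as reported, which says little of stability. Set against the average of the 4 DMSO libraries, members above 1.3-fold numbered 0 (4 h), 0 (6 h) and 1 (8 h), and members below it 1 (2 h), 1 (4 h) and 0 (6 h). With the GC and length trend removed, 3 were higher at 4 h and 2 lower at 6 h. Centring on the median change gave 1 higher at 2 h and 2 lower at 6 h, and a pseudocount of 0.1 gave 1 higher at 2 h. None of the members past 1.3-fold turned direction in these alternatives or without the filter. Leaving out each time point gave 0 to 8 members called in the late-against-early drug difference, with 8 when the 2 h pair was left out, where 1158 genes were called, and 0 in the other 2 tests. The cause of these changes was not tested. No paired analysis by replicate number was possible because each condition is 1 library and the labels carry no shared replicate numbers. Without the time point block HU210 against DMSO called 0 members. The table holds no read counts, so counting error could not be stated for any member.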
